A study of Mus musculus with 72 samples.

Results

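White fat was profiled by RNA-Seq in 4 *Bmal1*-KO and 4 *Bmal1*-KO+AAV mice at 40 weeks of age, 8 of the 72 libraries of the series. Members were taken by the tissue, age and genotype given for each library, and each gene with a mean normalized count above 5 over the 8 libraries was tested, which left 21092 genes. All 8 mice were male and lacked *Bmal1* (gene symbol *Arntl*) in every cell. The KO+AAV mice had in addition received, as pups on postnatal day 5, a systemic dose of an AAV9 vector that carries HA-tagged *Bmal1* cDNA behind the muscle-specific CK6 promoter.

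The comparison therefore asks how white fat of a *Bmal1*-null mouse differed when *Bmal1* was supplied to skeletal muscle, a tissue other than the one sampled. The KO group received no vector, so an effect of carrying AAV cannot be told apart here from an effect of *Bmal1*. No WT white fat was among the libraries, the fat depot was not given, and the libraries carry replicate numbers but no animal identities. P values thus measure the spread between these libraries. The values are DESeq2-normalized read counts, and between 38484830 and 50755829 reads fell on genes in each library.

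White adipose tissue stores triglyceride in large adipocytes, releases fatty acids between meals, and secretes hormones such as leptin and adiponectin. Adipocytes sit in a stroma of progenitors, vessels and immune cells. In most cells BMAL1 pairs with CLOCK and binds E-boxes, switching on the *Per* and *Cry* genes, whose products repress the pair, and the *Nr1d* genes, whose products repress *Bmal1* itself. Without BMAL1 this loop does not cycle.

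Adipocyte transcripts were found in all 8 libraries, as the tissue label requires. The summed normalized count of 10 adipocyte markers was between 914971 and 1552640 in 7 libraries and 225759 in KO replicate 2. That library carried the transcripts of the epididymis, the sperm-storing duct that lies against the gonadal fat pad. *Gpx5*, an epididymal glutathione peroxidase, stood at 748500 in KO replicate 2 and at no more than 1.6 in any other library, and *Lcn9*, *Gm4846*, *Defb48* and *Adam28* followed it among the genes most concentrated there. The 18 epididymis markers summed to 2583334 in KO replicate 2 against 16 to 1404 elsewhere.

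Other libraries also stood apart. The 7 epithelial markers summed to 71004 in KO replicate 2, 18976 in KO replicate 3 and 11335 in KO+AAV replicate 2, and to between 157 and 1249 in the other 5 libraries. The median correlation of a library with the other 7 was 0.767 for KO replicate 2, 0.909 for KO replicate 3 and 0.911 for KO+AAV replicate 2, and at least 0.973 for each of the remaining 5. KO+AAV replicate 3 held the most brown adipocyte transcripts (5 markers, 28911 against 265 to 720) and the most pancreatic acinar transcripts (6 markers, 9079 against 495 to 1484). The main counts of genes and most list medians below are therefore given for all 8 libraries and again without KO replicate 2. Where it matters they are also given for the 5 libraries low in epithelial transcripts (KO 1 and 4, KO+AAV 1, 3 and 4). For many single genes the difference is given for only 1 of these sets. In bulk tissue, fewer cells of a type and less RNA per cell cannot be told apart.

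**Figure D1:**
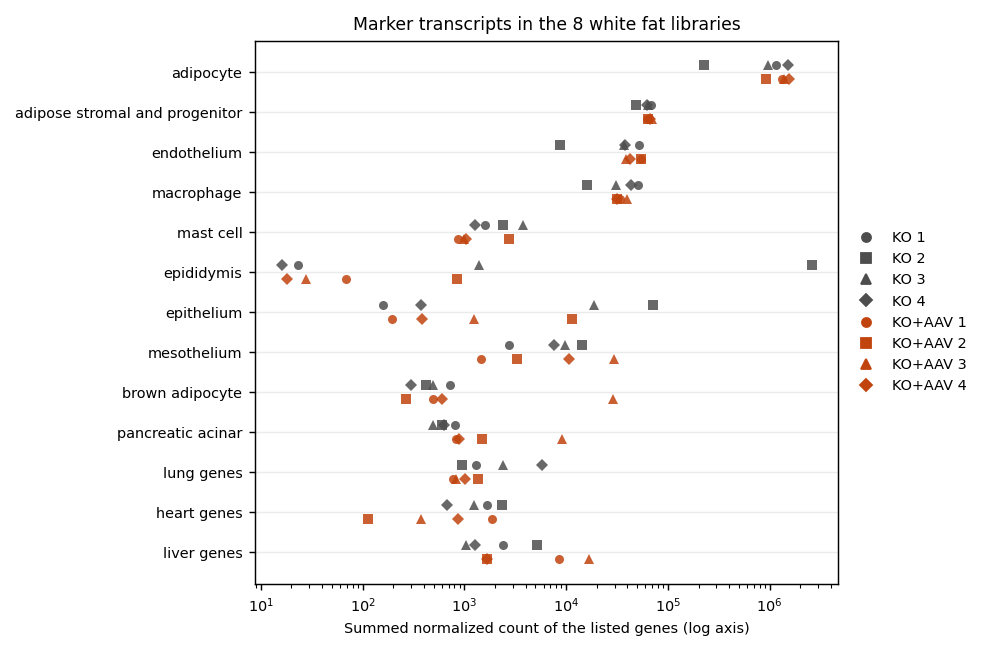
Summed normalized count of each marker list in the 8 white fat libraries (x, log axis), KO in grey and KO+AAV in orange, with a symbol for each replicate number. KO replicate 2 stands far to the right for epididymis (2583334) and to the left for adipocyte (225759), and KO+AAV replicate 3 to the right for brown adipocyte (28911).

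*Arntl*, the deleted gene (chromosome 7, 113207465 to 113314126, plus strand, GRCm38), was counted at 1144, 765, 1009 and 935 in the KO libraries and at 1043, 968, 879 and 906 in the KO+AAV libraries. The groups overlapped throughout, and KO replicate 2 was the lowest. The mean was 963 ± 158 (SD, n = 4) in KO and 949 ± 73 (SD, n = 4) in KO+AAV. The difference was -0.01 on the log2 scale (two-sided exact permutation test, p = 1), and -0.12 without KO replicate 2 (exact p = 0.314), where the smallest p the designs allow is 0.0286. A gene count pools all exons, so these values neither check the deletion nor separate transcripts of the disrupted gene from those of the vector. In other tissues of the same groups the difference was 0.13 in lung, 0.32 in heart and -0.48 in gastrocnemius (exact p of 0.171, 0.0571 and 0.0952). In liver it was 0.58, with 584 to 679 in KO and 781 to 1231 in KO+AAV (exact p = 0.0286). A direct test of white fat against liver gave a difference of -0.59 (limma interaction, adjusted P = 0.964), and -0.69 without KO replicate 2 of white fat (adjusted P = 1).

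BMAL1 acts through the E-box CACGTG, which reads the same on both strands. Among the 27 core clock and clock output genes listed, 22 had a RefSeq promoter window (GRCm38.p6, 250 bases before to 50 after the start), and 6 of these 22 genes held CACGTG in a window. Counted by window, 7 of the 29 windows of these genes held it, beside 7.15% of all 32851 windows of 300 bases. The windows of *Ciart*, *Per1* and *Cry1* are shown because these are classical targets of the BMAL1:CLOCK pair whose counts follow. Ciart, chr3:95882179-95882478, minus strand, holds 3 copies, and Per1, chr11:69098699-69098998, plus strand, and Cry1, chr10:85185005-85185304, minus strand, hold 1 copy each. Capitals mark the E-box.
Ciart: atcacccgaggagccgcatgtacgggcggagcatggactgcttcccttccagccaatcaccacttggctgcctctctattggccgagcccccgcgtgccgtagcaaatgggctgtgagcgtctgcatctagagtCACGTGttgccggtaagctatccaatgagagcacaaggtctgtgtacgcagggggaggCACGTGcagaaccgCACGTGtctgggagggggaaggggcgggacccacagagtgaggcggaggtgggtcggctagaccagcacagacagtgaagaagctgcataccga
Per1: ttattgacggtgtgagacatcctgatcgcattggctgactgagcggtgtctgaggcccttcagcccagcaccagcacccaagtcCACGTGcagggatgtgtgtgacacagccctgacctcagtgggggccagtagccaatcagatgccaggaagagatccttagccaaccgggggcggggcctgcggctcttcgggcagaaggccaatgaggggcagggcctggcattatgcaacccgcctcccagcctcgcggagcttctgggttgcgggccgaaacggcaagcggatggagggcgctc
Cry1: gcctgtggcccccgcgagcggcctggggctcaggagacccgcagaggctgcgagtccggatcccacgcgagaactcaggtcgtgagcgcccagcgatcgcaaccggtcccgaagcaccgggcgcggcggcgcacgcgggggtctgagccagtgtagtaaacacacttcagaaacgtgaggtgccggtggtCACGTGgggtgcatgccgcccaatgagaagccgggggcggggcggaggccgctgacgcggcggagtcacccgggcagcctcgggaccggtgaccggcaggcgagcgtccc

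Differences are given as the log2 of KO+AAV over KO ± SE from limma, and a gene is said to have changed, risen or fallen where its unadjusted P was under 0.01, the threshold of the study. None of the 27 clock genes changed between KO+AAV and KO white fat at P under 0.01 or at P under 0.05 in limma, with or without KO replicate 2. DESeq2 placed 1 clock output gene, lower in KO+AAV, under 0.05 in the 8 libraries. The paper gives a single time of day for its RNA-Seq, early in the light phase, so these values describe the clock genes at that time only. Over all genes tested, 220 (1.04%) reached P under 0.05 in the 8 libraries and 323 (1.53%) did so without KO replicate 2. *Ciart*, a repressor of the BMAL1:CLOCK pair with the 3 E-boxes shown, was counted at 27, 62, 33 and 40 in KO and at 25, 48, 14 and 17 in KO+AAV (-0.70 ± 0.46). *Per1*, a negative arm gene, stood at 1812, 2437, 1851 and 2518 in KO and at 1815, 3951, 1788 and 4096 in KO+AAV (0.34 ± 0.32). In both genes the groups overlapped, and *Per1* was high in KO+AAV replicates 2 and 4 alone.

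*Cry1*, the partner of PER proteins, was level at 2479 to 3166 in KO and 2807 to 3710 in KO+AAV (0.14 ± 0.13). *Nr1d1*, which encodes the repressor REV-ERBα, ranged from 102 to 402 in KO and from 168 to 397 in KO+AAV (0.40 ± 0.45 and 0.02 without KO replicate 2). Its exons overlap those of *Thra* on the other strand, and the strand setting of the counting was not given in the sources used here. *Dbp*, an output factor that follows BMAL1 closely in most tissues, ranged from 337 to 570 in KO and from 235 to 536 in KO+AAV (-0.17 ± 0.29).

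*Bhlhe40*, a repressor at E-boxes that also responds to hypoxia and stress, was the widest of the clock genes. Its counts were 818, 6351, 3215 and 7636 in KO and 643, 5085, 775 and 592 in KO+AAV. The KO libraries spread from 818 to 7636, so a difference of -1.6 ± 0.90 did not pass the test. *Bhlhe41*, its paralog, gave 1163, 4956, 1327 and 3513 in KO and 876, 2732, 735 and 710 in KO+AAV (-1.11 ± 0.60). In the 5 libraries low in epithelial transcripts limma placed neither at P under 0.01 (-1.91 and -1.39), DESeq2 placed both there (-2.66 and -1.6) and edgeR *Bhlhe41* alone. For the 17 core clock genes the median log2 difference was 0.14 in the 8 libraries and -0.01 without KO replicate 2, beside -0.03 and -0.01 over all genes tested. For the 10 output genes it was 0.13 and -0.06.

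**Figure D2:**
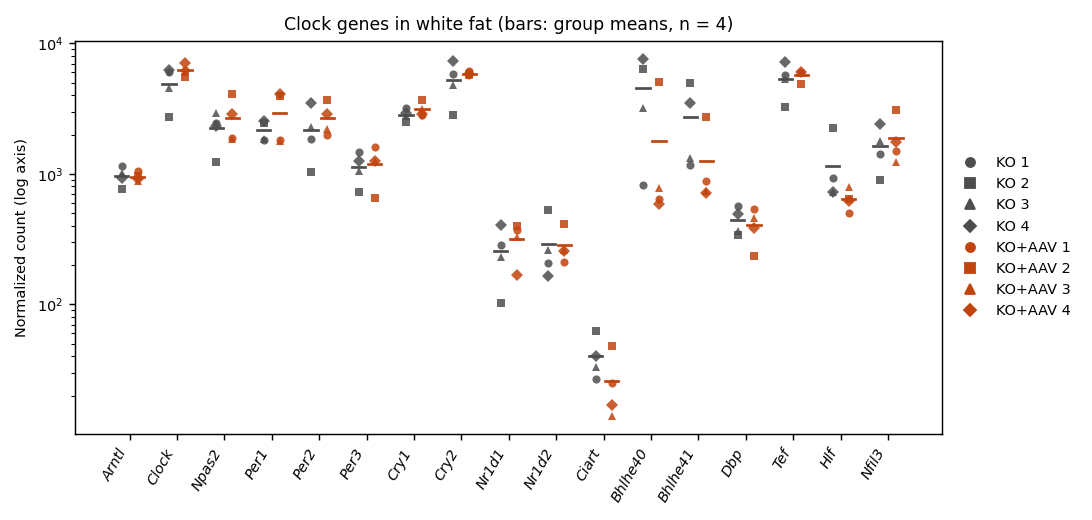
Normalized count (y, log axis) of *Arntl* and 16 other clock genes in each white fat library, KO in grey and KO+AAV in orange, with bars at the group means (n = 4). The groups overlap for each gene, and *Bhlhe40* spreads most, from 592 to 7636.

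Across all genes, 15 of 21092 changed at P under 0.01 in the 8 libraries, 7 higher and 8 lower in KO+AAV, which is 0.0711% of the genes tested. None passed adjustment (adjusted P = 0.907 for each of the 15). Without KO replicate 2, 39 genes changed, 17 higher and 22 lower (0.185%), again with none after adjustment (adjusted P = 1 for each of the 39). In the 5 libraries low in epithelial transcripts 144 genes did (0.683%), also with none. All of these shares lay below the 1% that P under 0.01 passes by chance where no gene differs. The counts therefore do not set the called genes apart from chance. Groups did not overlap for 276 genes (1.31%) in the 8 libraries and for 492 (2.33%) without KO replicate 2. Of 70 ways to assign the 8 libraries to the groups, 2 leave no overlap for a gene, as do 2 of 35 without KO replicate 2. Both shares lay below these chance rates. Among called genes the groups did not overlap for 13 of the 15 and for all 39. Genes with a small P are picked for such separation, so it adds little.

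Count models on the recovered reads gave other totals. DESeq2 placed 125 genes at P under 0.01 in the 8 libraries, with 1 after adjustment, and 203 without KO replicate 2, with 18 after adjustment (0.0853%), 11 higher and 7 lower. edgeR's quasi-likelihood test placed 14 and 27, with none after adjustment. The adjusted DESeq2 gene in the 8 libraries was *Abl1*, a tyrosine kinase gene. Its counts were 3468, 3356, 3526 and 3299 in KO and 2940, 2880, 2869 and 2947 in KO+AAV. All KO libraries lay above all KO+AAV libraries, by a small and even margin (-0.23 ± 0.09, DESeq2 adjusted P = 0.000718), and the limma test put *Abl1* under 0.05 but not under 0.01.

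Of the 15 genes of the main test, 6 also changed without KO replicate 2, and in all 6 the groups did not overlap. They were *Bpifa1* and *Hsp25-ps1*, higher in KO+AAV, and *Lamp3*, *Nxpe5* and the noncoding RNAs *Gm5464* and *9330198I05Rik*, lower. The other 9 kept their direction and were no longer under P of 0.01. *Bpifa1*, the top gene (chromosome 2, 154142880 to 154149219), encodes a protein secreted by airway epithelium. It was counted at 0, 0, 0 and 4.3 in the KO libraries and at 14, 16, 9.1 and 34 in the KO+AAV libraries. All KO+AAV libraries lay above all KO libraries, at levels of a few reads, and *Bpifa1* rose (log2 difference 3.50 ± 0.75 and 3.30 ± 0.74 without KO replicate 2). It passed the filter on low values only through the KO+AAV group, with a mean of 18.2 against 1.08 in KO, so a difference between the groups was a condition of its being tested.

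*Lamp3* (chromosome 16, 19653378 to 19706375), a lysosomal membrane gene strong in alveolar type 2 and dendritic cells, gave 9.8, 51, 18 and 35 in KO and 4.8, 4.2, 2 and 6.9 in KO+AAV. The KO libraries were all higher, and *Lamp3* fell in KO+AAV (-2.26 ± 0.60 and -1.91 ± 0.53 without KO replicate 2). Its mean was likewise above the filter in 1 group only (28.3 in KO and 4.48 in KO+AAV), as for no other of the 15 genes. Both genes are lung genes by level. *Bpifa1* had a mean of 48557 in lung of KO+AAV mice, and *Lamp3* means of 17593 in KO lung and 12982 in KO+AAV lung, although size factors were set separately for the tissues and levels across them are approximate.

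The lung values of *Bpifa1* moved the same way as those in fat. Lung held 43 to 3107 in KO and 25652 to 80640 in KO+AAV (log2 difference 6.42 ± 1.16). In white fat the *Bpifa1* mean was 0.0818% of the lung mean in KO and 0.0376% in KO+AAV. The KO value rests on KO replicate 4 alone (0.327%), since the other 3 KO libraries stood at 0. The same ratios were 0.0848% and 0.0327% for *Scgb1a1*, the club cell secretoglobin, and 0.0789% and 0.0331% for *Sftpc*, surfactant protein C, and KO replicate 4 was the highest library for both.

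The share of lung transcripts differed between libraries. Over 7 lung genes the median level was 0.0493%, 0.0277%, 0.0794% and 0.193% of that in lung for the KO fat libraries, and 0.0318%, 0.0455%, 0.0267% and 0.0256% for KO+AAV. KO replicate 4 was the highest. *Sftpc* was counted at 339, 136, 496 and 894 in KO and at 130, 214, 141 and 135 in KO+AAV. Apart from KO replicate 2 all KO libraries were higher, and without it *Sftpc* fell (-1.80 ± 0.36, DESeq2 adjusted P = 0.00175). *Sftpb* gave 80, 46, 114 and 290 in KO and 42, 46, 27 and 32 in KO+AAV, and it fell without KO replicate 2 (-1.91 ± 0.47).

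*Lamp3* in fat did not follow those shares in every library, since KO replicate 2 had its highest count, 51, with the lowest lung share of the KO libraries, 0.0277%. Its mean in fat was 0.161% of that in KO lung and 0.0345% of that in KO+AAV lung. Among the 15 genes of the main test, 3 (*Bpifa1*, *Gcgr* and *Lamp3*) had a mean at least 100 times higher in lung, heart or liver than in white fat, against 2.08% of all genes tested. Leaving out KO replicate 2 there were 5 of 39 (*Bpifa1*, *Hsd17b13*, *Lamp3*, *Sftpb* and *Sftpc*). The part of transcripts from other tissues in these differences was not tested.

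**Figure D3:**
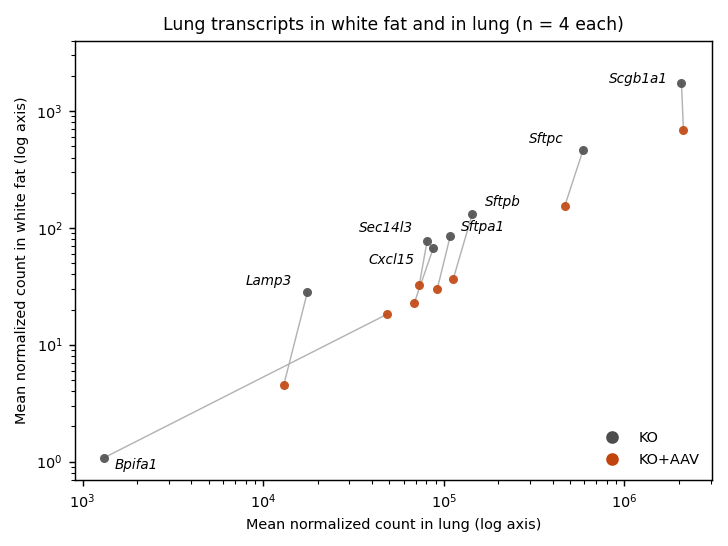
Mean normalized count in lung (x) and in white fat (y), both log axes, of 8 lung transcripts in KO (grey) and KO+AAV (orange), n = 4 each, with a line joining the groups of a gene. The white fat means are 0.0325% to 0.0446% of the lung means in KO+AAV and 0.0767% to 0.161% in KO, and *Bpifa1* moves along both axes, from 1319 to 48557 in lung.

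*Nxpe5* (chromosome 5, 138225898 to 138253363), a gene of the neurexophilin-like family, was the best expressed of the 6. It was counted at 482, 710, 338 and 413 in KO and at 310, 222, 254 and 267 in KO+AAV. The lowest KO library lay above the highest KO+AAV library, and the means were 486 ± 160 and 263 ± 36 (SD, n = 4), 1.84-fold higher in KO. The log2 difference was -0.84 ± 0.24, -0.64 ± 0.17 without KO replicate 2 and -0.69 ± 0.14 in the 5 libraries. It did not pass adjustment in limma, nor in DESeq2 without KO replicate 2 (adjusted P = 0.27).

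*Gm5464* was counted at 23, 37, 31 and 22 in KO and at 8.7, 13, 11 and 11 in KO+AAV (-1.26 ± 0.35). *9330198I05Rik* gave 20, 15, 15 and 15 in KO and 6.8, 6.7, 3 and 5.7 in KO+AAV (-1.43 ± 0.41). Both are annotated as long intergenic noncoding RNAs, and the groups did not overlap for either.

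*Hsp25-ps1* is a processed pseudogene of *Hspb1*, the small heat shock protein HSP25. Its counts were 7.6, 9.7, 10 and 9.7 in KO and 22, 23, 36 and 18 in KO+AAV (1.29 ± 0.36). *Hspb1* itself was counted at 1884, 645, 1612 and 2087 in KO and at 2562, 3105, 3765 and 2440 in KO+AAV. All KO+AAV libraries were higher for both. Without KO replicate 2 *Hspb1* rose by 0.66 ± 0.17, and with it the difference was 1.04 ± 0.37. Reads from the near-identical pair may be split between them, and 69.2% of the pseudogene's exon bases overlap *Gm9817* on the other strand, so the values of the pair are not independent.

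*Hspb1* was 1 of 2 genes that changed without KO replicate 2 among 520 tested genes of the 29 pathway lists (0.385%, beside 0.185% of all genes tested), and none of the 520 changed in all 8 libraries. All 18 heat shock genes had a positive difference without KO replicate 2 (median 0.21) and 14 of 18 with it (median 0.16), but in the 5 libraries 13 of 18 did (median 0.07). In lung *Hspb1* also rose, by 0.77 ± 0.21, and its difference between white fat and lung did not pass the test (0.26 ± 0.45). The other member was *Btg2*, an antiproliferative gene induced by p53 and by mitogens. It stood at 2341, 1608, 2211 and 2209 in KO and at 2618, 2660, 2535 and 2625 in KO+AAV. All KO+AAV libraries were higher, by 0.21 ± 0.06 without KO replicate 2 (DESeq2 adjusted P = 0.0378).

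Of the other genes of the main test, *Mid1ip1* encodes a partner of acetyl-CoA carboxylase in fatty acid synthesis. It was counted at 6753, 13496, 5741 and 7306 in KO and at 3230, 4031, 5198 and 2593 in KO+AAV. The groups did not overlap (-1.11 ± 0.31), and without KO replicate 2 the difference of -0.85 ± 0.24 lay just outside the threshold. *Gm14493* overlaps 25.5% of its exon bases on the other strand.

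*Slc15a2*, a peptide transporter gene, gave 878, 1271, 958 and 555 in KO and 453, 608, 283 and 247 in KO+AAV (-1.24 ± 0.35). The KO libraries were higher apart from replicate 4, which lay below KO+AAV replicate 2. *Rnase6*, an antimicrobial ribonuclease of myeloid cells, gave 310, 325, 306 and 189 in KO and 165, 174, 178 and 151 in KO+AAV (-0.73 ± 0.21), without overlap.

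*Cisd1*, which encodes the outer mitochondrial membrane protein mitoNEET, was higher in all KO+AAV libraries. Its counts were 3318, 2348, 2383 and 3510 in KO and 3787, 4890, 4658 and 3912 in KO+AAV (0.59 ± 0.17). *Gcgr*, the glucagon receptor gene, gave 78, 56, 43 and 87 in KO and 145, 137, 119 and 102 in KO+AAV (0.96 ± 0.28). Liver held *Gcgr* at a mean of 11885 in KO and 10874 in KO+AAV. The 8 liver genes listed were highest in KO+AAV replicates 3 and 1, at a median of 0.525% and 0.259% of their level in liver. *Gcgr* was highest in KO+AAV replicate 1 but did not follow these shares throughout. KO+AAV replicate 2, with a liver share of 0.043%, held 137, above the 119 of replicate 3. The part of liver transcripts in the *Gcgr* difference was not tested.

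*Cd164l2* gave 200, 113, 153 and 179 in KO and 235, 520, 307 and 274 in KO+AAV (1.01 ± 0.29). Without KO replicate 2, *Slc15a2*, *Rnase6*, *Cisd1*, *Gcgr* and *Cd164l2* kept their direction and were under P of 0.05 but not under 0.01. *Gpr3* overlaps 11.2% of the exon bases of *Cd164l2* on the other strand.

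Some genes changed only once KO replicate 2 was left out. *Dixdc1*, a Wnt pathway gene, was counted at 1051, 434, 956 and 1274 in KO and at 415, 595, 635 and 444 in KO+AAV. Replicate 2 was the lowest KO library, and the other 3 lay above all KO+AAV libraries (-1.08 ± 0.19, DESeq2 adjusted P = 0.00106, and -0.75 ± 0.34 with KO replicate 2). *Csf1*, the macrophage growth factor gene, gave 3081, 1378, 2923 and 3849 in KO and 2446, 2302, 2545 and 2151 in KO+AAV, and it fell without KO replicate 2 (-0.47 ± 0.12). *Fcgr2b*, the inhibitory Fc receptor gene, gave 1964, 4954, 1828 and 1682 in KO and 1315, 1466, 1481 and 1319 in KO+AAV (-0.39 ± 0.09 without KO replicate 2, DESeq2 adjusted P = 0.0258), and its groups did not overlap in the 8 libraries either.

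**Figure D4:**
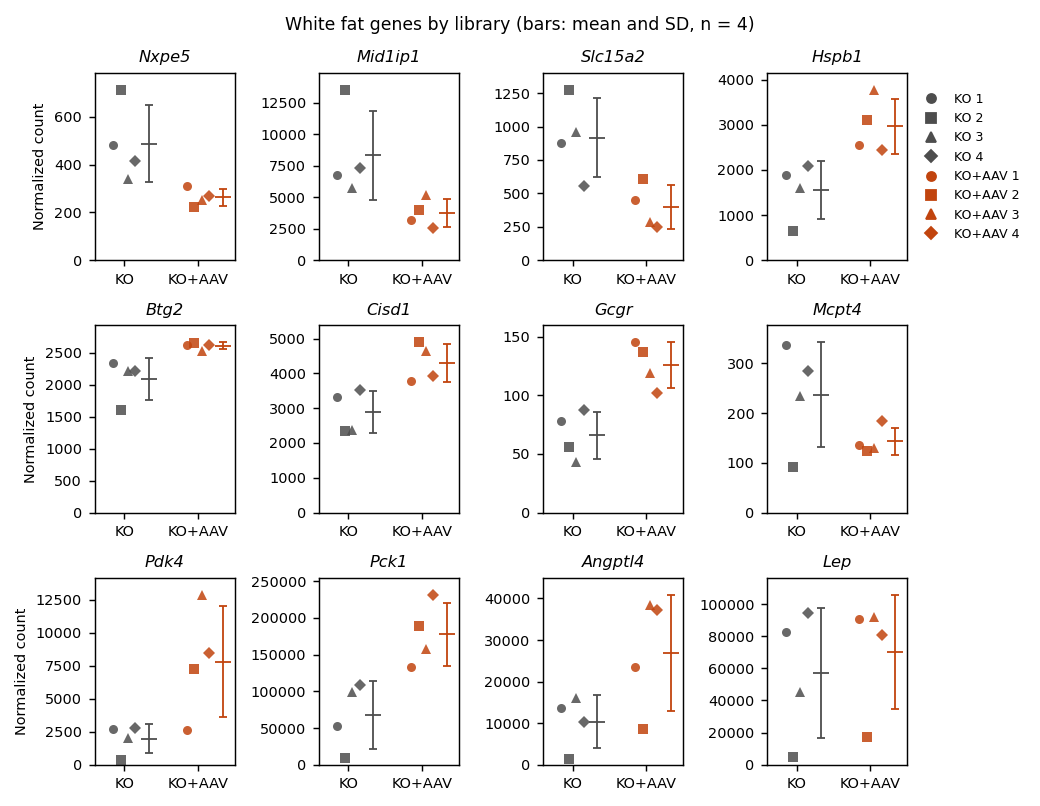
Normalized count (y, from 0) of 12 genes in each white fat library, KO in grey and KO+AAV in orange, with the mean and SD of each group (n = 4) beside the points. *Nxpe5*, *Mid1ip1*, *Hspb1*, *Btg2*, *Cisd1*, *Gcgr* and *Pck1* do not overlap between groups, and KO replicate 2 is the lowest library for *Hspb1*, *Btg2*, *Cisd1*, *Mcpt4*, *Pdk4*, *Pck1*, *Angptl4* and *Lep*.

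No hormone gene of fat passed the test. *Lep*, which encodes leptin, was counted at 82862, 5130, 45573 and 94747 in KO and at 90757, 17127, 91808 and 80989 in KO+AAV. KO replicate 2 and KO+AAV replicate 2 were low, and the other 6 libraries lay between 45573 and 94747 (0.66 ± 0.99 and -0.28 ± 0.67 without KO replicate 2). *Adipoq*, the adiponectin gene, gave 119360, 21980, 92002 and 174316 in KO and 135362, 85684, 137380 and 157888 in KO+AAV (0.02 ± 0.36 without KO replicate 2). For *Retn*, the resistin gene, and *Cfd*, the adipsin gene, the differences without KO replicate 2 were 0.09 ± 0.29 and -0.09 ± 0.45. The standard errors were 0.29 to 0.67 on the log2 scale, and a difference must be several times its standard error to pass P under 0.01. Differences well above these standard errors could therefore have been missed in these libraries.

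The medians of the fat metabolism lists were positive in the 8 libraries and moved with KO replicate 2. For the 15 lipolysis genes the median log2 difference was 0.73 in the 8 libraries and 0.21 without KO replicate 2. For the 20 fatty acid oxidation genes it was 0.50 and 0.21, with 17 and 18 members positive. For the 18 genes of triglyceride synthesis and droplet proteins it was 0.60 and 0.18, and for the 18 genes of de novo lipogenesis 0.16 and -0.19. No member changed at P under 0.01 in limma. DESeq2 placed 1 fatty acid oxidation gene there with and without KO replicate 2, and 1 lipolysis gene without it, each higher in KO+AAV. The summed adipocyte markers in KO replicate 2 were below those of all other libraries, as given above, and the part of this library's makeup in these medians was not tested.

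In limma *Pdk4*, *Pck1* and *Irs2* reached P under 0.05 but not 0.01 in both sets of libraries. Like *Angptl4* and *Adrb3*, they were named after their values were seen. DESeq2 placed 1 insulin and IGF signalling gene, higher in KO+AAV, at P under 0.01 in both sets. *Pdk4*, a kinase that shuts down pyruvate oxidation in fasting, was counted at 2747, 383, 2032 and 2769 in KO and at 2636, 7264, 12888 and 8442 in KO+AAV. KO+AAV replicates 2, 3 and 4 lay above all KO libraries, and replicate 1 did not (2.11 ± 0.73 and 1.44 ± 0.51 without KO replicate 2). *Pck1*, the PEPCK gene of glyceroneogenesis in fat, gave 52206, 8799, 99117 and 109269 in KO and 132974, 188645, 157002 and 231698 in KO+AAV. All KO+AAV libraries were higher (1.88 ± 0.76 and 1.07 ± 0.38 without KO replicate 2).

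*Irs2*, an insulin receptor substrate gene, gave 2537, 2280, 2466 and 2609 in KO and 2685, 3407, 5191 and 4774 in KO+AAV, without overlap (0.65 ± 0.21). *Angptl4*, an inhibitor of lipoprotein lipase, gave 13684, 1499, 16070 and 10334 in KO and 23495, 8555, 38373 and 37263 in KO+AAV. It was higher in KO+AAV apart from replicate 2 (1.6 ± 0.82, not under P of 0.05), and in the 5 libraries it rose by 1.44 ± 0.29. *Adrb3*, the β3-adrenergic receptor gene of adipocytes, stood at 5510 to 37813 in KO and 37749 to 47575 in KO+AAV (0.49 ± 0.20 without KO replicate 2), and *Gm45470* overlaps 24.9% of its exon bases on the other strand.

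*Cdkn1a* and *Dusp1*, which respond to glucocorticoids and to stress, were also without overlap between groups, at P under 0.05 but not 0.01. *Cdkn1a* gave 6716, 2663, 6902 and 7015 in KO and 8164, 8725, 10663 and 12136 in KO+AAV (0.51 ± 0.15 without KO replicate 2). *Dusp1* gave 2790, 730, 2491 and 1558 in KO and 2920, 3799, 3278 and 3881 in KO+AAV (0.64 ± 0.22 without KO replicate 2). Of the 16 glucocorticoid-responsive genes, 12 were positive in the 8 libraries (median 0.35) and 13 without KO replicate 2 (median 0.29), while *Fkbp5*, a member of the list, had -0.05 ± 0.40 without that library. Over all genes tested, 46.6% were positive in the 8 libraries and 47.1% without KO replicate 2.

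In the opposite direction, 16 of 18 cholesterol synthesis genes were negative in the 8 libraries (median -0.43) and 17 of 18 without KO replicate 2 (median -0.25). *Sqle*, squalene epoxidase, gave 1180, 4126, 1246 and 888 in KO and 819, 685, 1232 and 737 in KO+AAV (-0.37 ± 0.23 without KO replicate 2). The cell cycle list had 3 of 19 members positive in the 8 libraries (median -0.49) and 2 without KO replicate 2 (median -0.44). *Mcm2*, a replication helicase subunit, gave 392, 887, 550 and 379 in KO and 315, 348, 318 and 297 in KO+AAV, without overlap and at P under 0.05 but not 0.01 (-0.44 ± 0.16 without KO replicate 2). In the 5 libraries low in epithelial transcripts the cell cycle median was -0.09, with 7 of 19 positive.

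**Figure D5:**
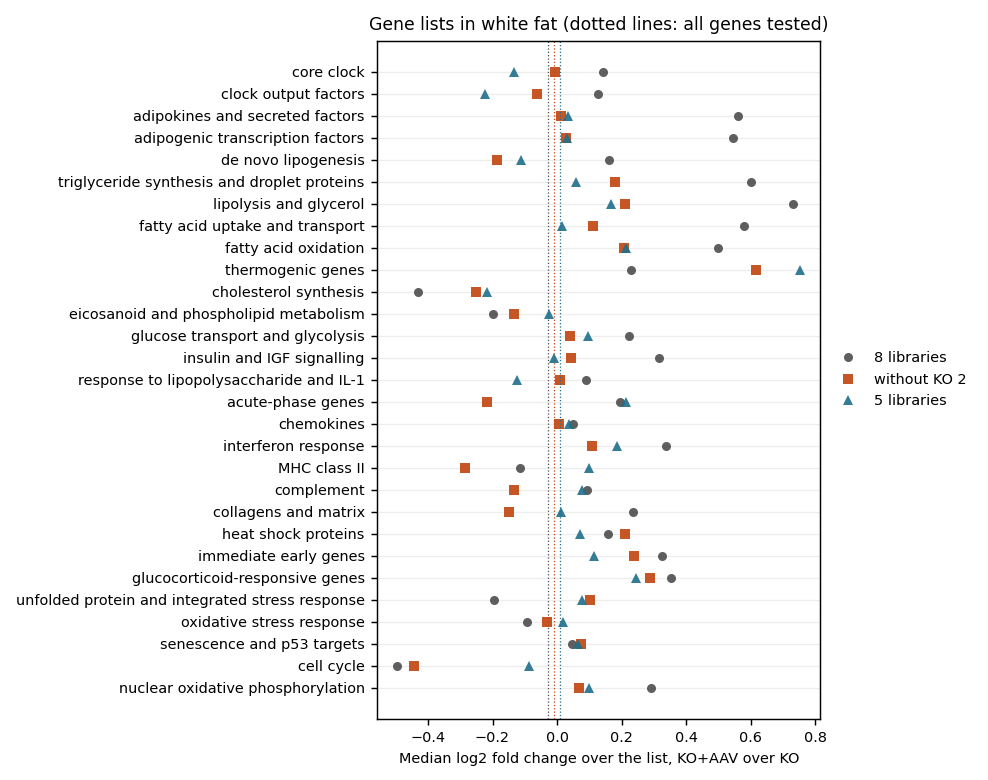
Median log2 difference of KO+AAV over KO (x) for each of the 29 gene lists in white fat, in the 8 libraries (circles), without KO replicate 2 (squares) and in the 5 libraries low in epithelial transcripts (triangles), with dotted lines at the median of all genes tested. Without KO replicate 2 the lipolysis list moves from 0.73 to 0.21 and the triglyceride list from 0.60 to 0.18.

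Immune lists held no changed member in limma with or without KO replicate 2. In the 8 libraries DESeq2 placed 1 MHC class II gene, lower, and 1 interferon response gene, higher, at P under 0.01. Without KO replicate 2 it placed 1 chemokine gene there, lower. The response to lipopolysaccharide and IL-1 had a median of 0.09 over 27 genes and 0.01 without KO replicate 2, the chemokines 0.05 and 0.01, and the interferon response 0.34 and 0.11. The 10 MHC class II genes, which present antigen, had a median of -0.11 in the 8 libraries and -0.28 without KO replicate 2, and 0.10 in the 5 libraries. *Cd74*, their invariant chain, ranged from 8338 to 25599 in KO and from 13153 to 16447 in KO+AAV, with KO replicate 3 the highest (-0.28 ± 0.24 without KO replicate 2). Complement had medians of 0.09 and -0.13, and collagens and matrix genes 0.24 and -0.15, so both changed sign with KO replicate 2.

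Connective tissue mast cell proteases were lower in KO+AAV among the 7 other libraries. *Mcpt4*, a chymase, was counted at 337, 92, 235 and 284 in KO and at 135, 124, 129 and 184 in KO+AAV. KO replicate 2 was the lowest library and the other 3 KO libraries were the highest, so that *Mcpt4* fell without it (-1.0 ± 0.21, DESeq2 adjusted P = 0.02, and -0.59 ± 0.40 with KO replicate 2). *Cma1*, a second chymase, gave 267, 81, 194 and 229 in KO and 120, 146, 123 and 149 in KO+AAV and fell likewise (-0.76 ± 0.18, DESeq2 adjusted P = 0.0511). *Cpa3* and *Tpsb2*, a carboxypeptidase and a tryptase of the same granules, had differences of -0.59 ± 0.24 and -0.53 ± 0.23. Of 8 mast cell markers, 7 were negative and 1 positive without KO replicate 2 (median -0.56), where 47.1% of all genes tested were positive, and 2 of the 8 fell, beside 0.185% of all genes called in either direction, while the macrophage markers had 2 of 10 positive (median -0.26) and none called. The summed mast cell list did not follow, at 1275 to 3760 in KO and 872 to 2772 in KO+AAV, with KO replicate 3 and KO+AAV replicate 2 the highest.

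Brown fat and pancreatic transcripts were highest in KO+AAV replicate 3. *Ucp1*, the uncoupling protein of brown fat, was counted at 43, 6.5, 11 and 1.1 in KO and at 9.7, 2.5, 16647 and 0 in KO+AAV, so 1 KO+AAV library held nearly all of it. *Cidea*, which brown adipocytes also express, was 7531 in that library and 94 to 281 in the others. The 6 pancreatic markers summed to 495 to 809 in KO and to 821 to 9079 in KO+AAV, so every KO+AAV library lay higher in the sum. The gap was narrow, 809 in KO replicate 1 against 821 in KO+AAV replicate 1. By the median log2 deviation of the markers from their means, KO replicate 2 (0.47) lay above KO+AAV replicates 1 (-0.30) and 4 (-0.72). All 6 had a positive difference with and without KO replicate 2. In each set 3 of them reached P under 0.05 in limma, beside 1.04% and 1.53% of all genes tested, and none reached 0.01. *Ctrb1*, chymotrypsinogen of pancreatic acinar cells, gave 6.5, 107, 9.5 and 24 in KO and 50, 413, 2724 and 41 in KO+AAV (DESeq2 adjusted P = 0.0428 without KO replicate 2), and *Prss2*, a trypsinogen gene, was also among the 11 genes higher after that adjustment. Neither passed P under 0.01 with limma. The skeletal muscle list summed to 480 to 2160 in KO and 2033 to 4683 in KO+AAV, and most of that sum outside KO replicate 2 was *Acta1*, the actin of skeletal muscle. It gave 948, 55, 1296 and 1994 in KO and 1809, 2441, 4463 and 2943 in KO+AAV (1.03 ± 0.36 without KO replicate 2). Only 2 of the 8 tested members of that list were positive in the 8 libraries. *Pvalb*, parvalbumin of fast fibres, rose without KO replicate 2 (2.58 ± 0.52). Its counts were 0 to 1.1 in those 3 KO libraries and 4.1 to 18 in KO+AAV, while KO replicate 2 held 11. The KO mean of *Pvalb* lay under the filter on low values, which it passed only through the KO+AAV group. A difference between the groups was thus a condition of *Pvalb* being tested.

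The other tissues of the same groups were tested with limma only, and the 15 genes of white fat are set beside them on that test. At P under 0.01, 835 of 21072 genes changed in lung (3.96%), 15 of 18089 in heart (0.0829%), 91 of 16656 in liver (0.546%) and 174 of 16186 in gastrocnemius (1.08%), the last with 5 libraries in each group. Of the 15 genes of white fat, 14 were also tested in lung and 2 changed there (*Bpifa1* and *Lamp3*), 1 of the 7 tested in liver did (*Gm5417*), and none of the 10 tested in heart or of the 6 tested in gastrocnemius. The difference of the white fat effect from that of another tissue reached P under 0.01 for 131 genes against lung (0.679%), 14 against heart (0.0811%) and 23 against liver (0.144%), and for none after adjustment. Leaving out KO replicate 2 of white fat, it did so for 169 (0.876%), 13 (0.0753%) and 31 (0.194%). After adjustment 1 of the 169 passed, *Krt5*, a keratin gene of basal epithelial cells (-6.14 ± 0.60, limma adjusted P = 0.00208), which was named after its values were seen. *Krt5* was at 1.6 or less in those 7 white fat libraries and at 1669 in KO replicate 2, while lung held none in KO and 22 to 77 in KO+AAV. *Krt5* therefore passed the filter in white fat only through KO replicate 2, which this fit leaves out, and in lung only through KO+AAV. A difference between the groups in lung was thus a condition of its being tested.

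Among the named genes, with all 8 white fat libraries, *Gcgr* differed from lung by 1.12 ± 0.32 and from liver by 1.08 ± 0.26. Its own differences in those tissues were -0.17 ± 0.16 and -0.13 ± 0.08. *Cisd1* differed from liver by 0.65 ± 0.21, and *Pdk4* by 2.71 ± 0.88. *Slc15a2* differed from lung by -1.45 ± 0.43. *Lamp3* also fell in lung, by 0.43 ± 0.12 on the log2 scale, and fell further in white fat, by a difference of -1.83 ± 0.56. None of these passed an adjusted P of 0.05.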

How the data were processed

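Total RNA was extracted with TRIzol and RNeasy columns, and poly(A)-selected libraries were made with the Illumina mRNA Prep kit and sequenced at 1 site (ICBR). The authors aligned reads to GRCm38 (mm10) with HISAT2, counted them per gene with HTSeq and deposited the signal of each gene as counts divided by DESeq2 size factors. The annotation release and strand setting are not given in the sources used here. In these columns 100% of values above 0 were whole multiples of 1 read within 0.01, so reads were recovered for the count tests, which called 125 (DESeq2) and 14 (edgeR) genes. Size factors differed between tissues, so tests were made within a tissue.

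Symbols and coordinates came from GENCODE vM21, which held 55141 of 55401 genes. limma 3.58.1 with a mean-variance trend was fitted in R 4.3.3 to log2(normalized count + 1) for genes with a mean above 5, with Benjamini-Hochberg adjustment over all genes tested. A fold change on this scale understates that of low genes. A call was P under 0.01, the threshold of the study. The same genes were fitted without KO replicate 2. Differences between tissues were limma interaction terms. Alternatives were edgeR 4.0.16, DESeq2 1.42.0, library weights, filters, pseudocounts and left-out libraries. The fits were tested on simulated data.

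Genes named were the clock lists, up to 12 genes in each direction called with and without KO replicate 2 whose groups do not overlap, called members of pathway lists, *Lep*, *Adipoq*, *Retn*, *Cfd* and *Ucp1*, the 5 genes most concentrated in KO replicate 2, and cell type markers. Other genes named, the lung, heart and liver lists and the sets of 5 and 4 libraries were chosen after values were seen. The comparison, its members and all lists were chosen with earlier results of these data known. Intervals of counting error do not enter, since each value rests on replicate libraries.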

Additional observations from a re-analysis of the deposited data

Results flagged for a closer look

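Groups of 4 white fat libraries were checked on log2(normalized count + 1), 162 in all (81 genes, 2 groups each). Of these, 21 held a library whose gap to its neighbour, as a share of the group's range, was above Dixon's critical value. Chance flags about 1 in 20 where genes are picked blind to their values, which was not so for all of these 81. KO+AAV replicate 2 was the flagged library in 8 of the 21 groups: *Bhlhe40* (0.875), *Bhlhe41* (0.845), *Tef* (0.896), *Usp2* (0.83), *Lep* (0.925), *Epcam* (0.88), *Plin1* (0.886) and *Sftpc* (0.838). It held 11335 of summed epithelial markers, and its *Plin1*, the perilipin of lipid droplets, was 53500 against 136677 to 154299 in the other KO+AAV libraries.

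KO replicate 2 was that library in 8: *Btg2* (0.844), *Cfd* (0.835), *Gpx5* (0.93), *Fcgr2b* (0.857), *Pdk4* (0.843), *Cdkn1a* (0.955), *Igf1* (0.856) and *Krt5* (0.872). The remaining 5 were *Bpifa1* (1) and *Rnase6* (0.887) in KO replicate 4, *Upk3b* (0.852) in KO replicate 1, *Adrb3* (0.906) in KO+AAV replicate 4 and *Cpa3* (0.831) in KO+AAV replicate 1. *Gpx5* was named for its concentration in KO replicate 2, so its flag follows from that choice. *Krt5* was named after its values were seen. The number of flags is therefore no test against the chance rate.

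The KO+AAV effect of 8 named genes differed from that in another tissue at P under 0.01 in the 8 libraries, none after adjustment. White fat minus lung was -1.83 for *Lamp3*, -1.45 for *Slc15a2*, 1.12 for *Gcgr*, -4.18 for *Myh6* and -8.7 for *Krt5*. In white fat *Krt5* passed the filter only through KO replicate 2. White fat minus liver was 0.65 for *Cisd1*, 1.08 for *Gcgr* and 2.71 for *Pdk4*, and white fat minus heart was 3.65 for *Adrb3*, which heart held at no more than 40.3. For *Myh6*, the cardiac myosin gene, white fat held 44 to 800, while lung held 1918 to 19027 in KO and 30771 to 100517 in KO+AAV.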

How the results depend on the processing

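The count of 15 genes at P under 0.01 in white fat rose to 56 without a filter on low values, 36 with a replicate block, 113 with library quality weights, 125 with DESeq2 and 232 in a model of 4 tissues, and was 6 among genes with a mean above 50. Leaving out 1 library gave 4 (without KO+AAV replicate 3) to 39 genes (without KO replicate 2). It was 28 without KO replicate 4, 9 without KO+AAV replicate 1 and 7 without KO+AAV replicate 4. The 5 libraries low in epithelial transcripts gave 144 with limma, 263 with DESeq2 (20 after adjustment) and 92 with edgeR, and 4 of them, also without KO+AAV replicate 3, gave 161. TMM factors and a pseudocount of 0.5 gave 15, and edgeR 14. The cause of these shifts was not tested.

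Without KO replicate 2, DESeq2 gave 203 genes against 39. The *Arntl* difference ranged from -0.12 to 0.08 over the left-out libraries and changed sign without KO replicate 1 (0.078), KO replicate 3 (0.02), KO+AAV replicate 3 (0.03) and KO+AAV replicate 4 (0.01), always within the spread. Members of the pathway lists called numbered 0, and 2 without KO replicate 2, 7 with DESeq2, 1 with edgeR, 1 without a filter and 3 in the 5 libraries. No total was taken for DESeq2 without KO replicate 2, which called 2 immediate early genes and 2 eicosanoid and phospholipid genes, among others. No named gene that was called reversed, while 32 of 81 named genes changed sign under some alternative, below the threshold in both fits.

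Replicate numbers did not pair the libraries: deviations from the group means correlated at 0.40, 0.48, -0.38 and 0.58 for numbers 1 to 4, so the block rests on a shared number only. The makeup of the libraries limits these data: KO replicate 2, KO replicate 3 and KO+AAV replicate 2 hold epithelial transcripts, which leaves 2 KO and 3 KO+AAV libraries low in them. Low counts limit 5 of the 6 genes that changed with and without KO replicate 2, all but *Nxpe5*, at 51 or fewer in every library.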

Other observations

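Transcripts of heart and liver were also found in white fat, in amounts that differed by library. The 7 heart genes, led by *Myh6*, were highest in KO replicate 2 (median 0.0805% of their level in heart), KO+AAV replicate 1 (0.0657%) and KO replicate 1 (0.0654%), and lowest in KO+AAV replicate 2 (0.00376%). The 8 liver genes, led by *Alb*, ranged from 0.022% in KO replicate 4 to 0.525% in KO+AAV replicate 3. All 8 were higher in KO+AAV in the mean (median log2 difference 1.35, and 1.84 without KO replicate 2), while KO+AAV replicates 2 and 4 (0.043% and 0.0299%) lay within the range of KO.

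The lung, heart and liver shares did not rank the libraries in the same order. KO replicate 4 was highest for lung and lowest for liver. None of the heart or liver genes passed P under 0.01 in limma with or without KO replicate 2, while DESeq2 placed 3 liver genes there without it.

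Nuclear genes of mitochondrial respiration had small differences, mostly of the same sign. All 22 oxidative phosphorylation genes were positive in the 8 libraries (median 0.29, highest 0.44), 19 of 22 without KO replicate 2 (median 0.07) and all 22 in the 5 libraries (median 0.10), with none at P under 0.05. Erythroid markers were positive in all 5 genes tested (median 0.99, and 0.47 without KO replicate 2), with none called in either set, and in the 5 libraries 3 of the 5 rose (median 0.76), where 0.683% of all genes were called. Mesothelial markers, of the lining that covers visceral fat, summed to 2722 to 14401 in KO and to 1460 to 29640 in KO+AAV. *Colca2* gave 561, 279, 462 and 567 in KO and 678, 825, 798 and 817 in KO+AAV, without overlap (0.56 ± 0.12, DESeq2 adjusted P = 0.02, without KO replicate 2).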
